A study of Mus musculus with 6 samples.

Results

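The keratin genes were taken as every protein-coding gene of the mm10 RefSeq gene table whose symbol starts with Krt and a number, or with Krtap. This gave 109 of the 21631 protein-coding genes on chromosomes 1 to 19 and X. There were 53 keratin genes (Krt), 27 on chromosome 11 and 26 on chromosome 15. The 56 keratin-associated protein genes (Krtap) lay on chromosomes 11 (23), 16 (24), 7 (5), 10 (3) and 1 (1). Open chromatin had been mapped by ATAC-seq (cutting and tagging of accessible DNA by the transposase Tn5) in hematopoietic stem cells (Lin-Sca-1+c-Kit+CD48-CD150+) sorted from the bone marrow of C57BL/6 mice aged 12 weeks at homeostasis, about 20000 cells at a time. The 3 libraries labelled Dek_fl came from Dekfl/fl mice and the 3 labelled Dek_cKO from Dekfl/fl,Tie2-Cre mice. Thus every library carried the floxed Dek alleles, and the labels differ in Cre, driven by control DNA of Tek (Tie2) in blood and endothelial cells. The sources used here do not give the exons flanked by loxP, so the peak lists do not check the deletion. Whether libraries of a group came from separate animals is not said in the labels, and the series design text speaks of duplicates where 3 libraries are listed. The p-values therefore measure only how far these libraries differ, and that spread may be technical.

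Keratins are the intermediate filament proteins of epithelial cells and of hair, nails and other epidermal appendages. Each filament is built from an acidic type I and a basic type II keratin. In the mouse the type I genes lie together on chromosome 11 and the type II genes on chromosome 15, with the type I gene Krt18 at one edge of the type II cluster. Keratin-associated proteins cross-link keratin filaments in the hair shaft, and many of their short genes lie in tandem arrays. Blood cells use other members of the superfamily, such as vimentin and the nuclear lamins.

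The authors deposited 1 peak list per library, and these lists are the only measure of depth in the files. They held 52451, 71555 and 23813 peaks in Dek_fl replicates 1 to 3 and 70756, 73173 and 27170 in Dek_cKO replicates 1 to 3. Both replicate 3 lists stand apart: they are the shortest, and their deposited score is 10 times the −log10 p-value, whereas in replicates 1 and 2 it is 10 times the −log10 q-value. Their median fold, 7.85 and 8.31, is also above the 4.40 to 5.32 of the others. The main comparisons of the labels are therefore also given without them, or split into replicates 1 and 2 and replicate 3. Of 12 stem cell marker genes listed to check the label, 10 had a peak within 5 kb in all 6 libraries, against 62.1% of all protein-coding genes. Among them was Kit, which encodes the sorted receptor c-Kit. The list is short, and 5 of 6 endothelial markers were also called in all 6 libraries. Ly6a, which encodes Sca-1, had one in a single Dek_fl library and in no Dek_cKO library, and Procr had one in 5 libraries.

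The promoters of a few members are shown first, because they carry the contrast between the keratin genes with and without a peak at the start. Of the 109 members, 87 were found in the RefSeq promoter table (GRCm38.p6, the assembly of mm10), which gives 250 bases before and 50 after the annotated start, so that the start is base 251. All are written 5′ to 3′ on the strand of the gene, with each CG dinucleotide in capitals. Krt18, which encodes the type I keratin of simple epithelia such as liver and gut, lies on the plus strand at chr15:102027966-102028265 and holds 17 CG.
Krt18: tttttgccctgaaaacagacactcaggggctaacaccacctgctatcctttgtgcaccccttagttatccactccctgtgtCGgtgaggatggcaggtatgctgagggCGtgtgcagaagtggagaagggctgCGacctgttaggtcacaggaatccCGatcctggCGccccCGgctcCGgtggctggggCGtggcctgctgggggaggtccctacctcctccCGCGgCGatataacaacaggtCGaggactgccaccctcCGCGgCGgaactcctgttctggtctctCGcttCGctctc
Krt7, a type II keratin of glandular and ductal epithelia, lies on the plus strand at chr15:101412153-101412452 and holds 21 CG, the most of any member.
Krt7: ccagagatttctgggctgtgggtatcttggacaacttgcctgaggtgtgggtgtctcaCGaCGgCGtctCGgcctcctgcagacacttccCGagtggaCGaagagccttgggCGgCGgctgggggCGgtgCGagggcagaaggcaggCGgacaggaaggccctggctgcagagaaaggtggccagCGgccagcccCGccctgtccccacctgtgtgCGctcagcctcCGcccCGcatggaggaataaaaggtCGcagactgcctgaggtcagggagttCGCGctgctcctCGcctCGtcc
Krt8, the type II partner of Krt18, lies on the minus strand at chr15:102004293-102004592 and holds 6 CG.
Krt8: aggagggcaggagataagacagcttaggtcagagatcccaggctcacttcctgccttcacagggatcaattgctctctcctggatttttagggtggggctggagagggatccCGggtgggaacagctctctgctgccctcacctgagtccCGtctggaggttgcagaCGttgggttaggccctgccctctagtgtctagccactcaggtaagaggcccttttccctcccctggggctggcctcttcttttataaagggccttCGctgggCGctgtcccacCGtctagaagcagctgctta
Krt10, the type I keratin of the differentiating epidermis, lies on the minus strand at chr11:99389315-99389614 and holds 2 CG.
Krt10: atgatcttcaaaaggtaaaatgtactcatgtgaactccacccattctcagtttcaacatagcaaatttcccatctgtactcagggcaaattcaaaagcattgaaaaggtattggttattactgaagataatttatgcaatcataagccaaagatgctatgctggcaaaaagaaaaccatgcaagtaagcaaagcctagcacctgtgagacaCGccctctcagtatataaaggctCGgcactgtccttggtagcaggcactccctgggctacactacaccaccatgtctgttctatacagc
Krt31, a type I keratin of the hair shaft, lies on the minus strand at chr11:100050502-100050801 and also holds 2 CG.
Krt31: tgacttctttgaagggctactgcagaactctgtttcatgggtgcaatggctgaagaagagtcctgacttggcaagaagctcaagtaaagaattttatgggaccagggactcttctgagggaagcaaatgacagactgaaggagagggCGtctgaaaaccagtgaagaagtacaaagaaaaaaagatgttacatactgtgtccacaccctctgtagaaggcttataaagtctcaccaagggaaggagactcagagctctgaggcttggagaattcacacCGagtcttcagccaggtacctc
Of these 5 windows, that of Krt18 had a peak in 4 libraries, and those of Krt7, Krt8, Krt10 and Krt31 had none in any library.

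Keratin promoters were poor in CG. Over 88 promoter entries of the 87 members the median was 3 CG in 300 bases (range 0 to 21), with a median of 5 for Krt and 2 for Krtap. Over the 21045 entries of all protein-coding genes in the table it was 13. The letters TATAAA, read on both strands, were present in 69.3% of member entries, 51.4% for Krt and 82.4% for Krtap, against 12.7% of all entries. In the windows of Krt8, Krt10 and Krt31 the match starts at base 250, 225 and 222. The letters GGGCGG, also on both strands, were present in 2.27% of member entries, among them that of Krt7, against 46.7% of all entries. All entries of 0 to 5 CG were called in all 6 libraries in 4.93% of cases, and those of 11 or more in 72.8%. Only 3 members, Krt7, Krt18 and Krt72, had 11 or more CG, and none of the 3 had a promoter peak in all 6 libraries. These matches describe the letters and are not binding sites.

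Peaks were found near 28 of the 109 genes of the family. A member counted as called in a library when a peak shared at least 1 bp with the gene or with 5 kb on either side. By this count 25.7% of members were called in at least 1 library, against 80.6% of all protein-coding genes, and 5 members (4.59%) in all 6 libraries, against 62.1%. The remaining 81 members had no peak within 5 kb in any list. An uncalled gene is not shown to be closed, and no RNA was measured, so the lists do not show whether any keratin gene was transcribed or silent.

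Read library by library, 19, 21 and 5 members were called in Dek_fl replicates 1 to 3, and 22, 24 and 5 in Dek_cKO replicates 1 to 3. These are 17.4%, 19.3% and 4.59% of members in Dek_fl and 20.2%, 22.0% and 4.59% in Dek_cKO. The shares of all protein-coding genes were 76.4%, 79.1% and 64.3% in Dek_fl and 79.1%, 79.3% and 65.7% in Dek_cKO. The keratin share thus lay below the share of all genes in each of the 6 libraries. A peak inside the gene itself was found for 19 members (17.4%) in at least 1 library, against 76.3% of all genes. Olfactory receptor genes, another large clustered family, had lower shares than keratin genes in every library, at 1.44% to 5.95% of 1110 genes, with 7.12% called in at least 1 library and 1.26% in all 6.

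**Figure D1:**
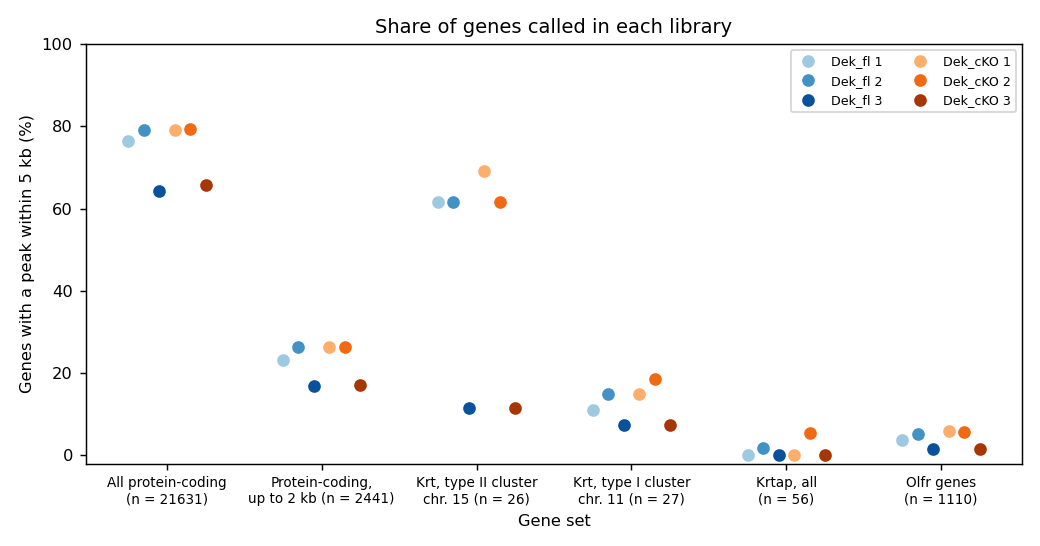
Percent of genes with a peak within 5 kb (vertical axis) for 6 gene sets, with 1 point per library and no error bars. The 26 Krt genes on chromosome 15 (type II genes and Krt18) reach 69.2% in Dek_cKO replicate 1 and fall to 11.5% in both replicate 3 lists, while Krtap genes stay between 0% and 5.36%.

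A longer gene has a longer window, so genes of like length were set side by side. All 56 Krtap genes span up to 2 kb, and 3 of them (5.36%) were called in at least 1 library, against 28.1% of the 2441 protein-coding genes of that length. Of the 52 members of 2 to 25 kb, 24 (46.2%) were called in at least 1 library and 4 in all 6, against 82.2% and 61.4% of 10569 genes. Per library, the called share of these longer members ran from 7.69% to 40.4%, and that of all such genes from 64.0% to 80.7%. Peaks were also sparse per base. Member windows, 1.40 Mb in all, held 16.4, 20.7 and 4.28 peaks per Mb in Dek_fl replicates 1 to 3 and 20.7, 25.7 and 4.28 in Dek_cKO. The windows of all protein-coding genes held 31.8, 42.3 and 15.97 in Dek_fl and 41.7, 43.0 and 17.8 in Dek_cKO.

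Calls at keratin genes appeared late in each list. When only the 5000 strongest peaks by −log10 p were kept, 0 members were called in each replicate 1 and 2 list and 1, Krt78, in each replicate 3 list, while 26.02% to 28.8% of all protein-coding genes were already called. With 10000 peaks kept, 0 to 3 members were called. With 20000 peaks there were 6, 8 and 5 in Dek_fl replicates 1 to 3 and 7, 7 and 4 in Dek_cKO, and the share of all genes had reached 59.6% to 62.3%. At 40000 peaks the 4 longer lists had 14 or 15 members each, and at 70000 peaks 21 in Dek_fl replicate 2 and 22 and 23 in Dek_cKO replicates 1 and 2. The keratin count was still climbing at the end of these lists, whereas the share of all genes moved from 77.7% to 79.1% between 60000 and 70000 peaks. With every list cut to the length of the shortest, 23809 peaks on these chromosomes, 9, 8 and 5 members were called in Dek_fl replicates 1 to 3 and 9, 11 and 5 in Dek_cKO. Both replicate 3 lists therefore held fewer keratin calls than the others at matched length too, although their share of all genes, 64.3% and 63.2%, was close to the 65.0% to 65.4% of the others.

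**Figure D2:**
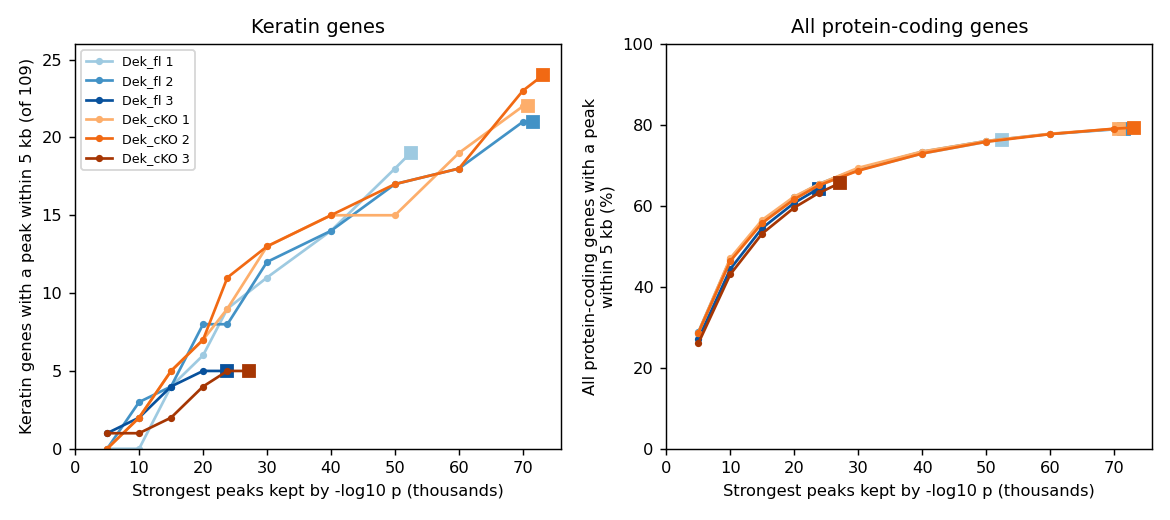
Number of keratin genes called (left, of 109) and percent of all protein-coding genes called (right) against the number of strongest peaks kept, for each library, squares marking the whole list. The keratin curves rise almost steadily to 19 to 24 genes in the 4 long lists, while the curves of all genes flatten near 79%.

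The 2 keratin clusters differed in how many genes were called. Of the 26 Krt genes on chromosome 15, 20 (76.9%) were called in at least 1 library. By library they were 16, 16 and 3 in Dek_fl replicates 1 to 3 and 18, 16 and 3 in Dek_cKO. Of the 27 Krt genes on chromosome 11, 5 (18.5%) were called in at least 1 library: Krt222, Krt10, Krt25, Krt28 and Krt14. The type II cluster, chromosome 15 from 101348315 to 102032026 (0.684 Mb), held 21, 24 and 5 peaks in Dek_fl replicates 1 to 3 and 25, 30 and 6 in Dek_cKO, or 7.31 to 43.9 per Mb. The 0.5 Mb on either side held 38 to 110 per Mb. The type I cluster, chromosome 11 from 99232761 to 100269951 (1.04 Mb, 27 Krt and 23 Krtap genes), held 1 to 11 peaks per library, or 0.964 to 10.6 per Mb, against 45 to 103 per Mb in its flanks. Peaks were thus sparser inside both clusters than beside them in each library, and sparser in the type I cluster than in the type II cluster.

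The longest stretch without a peak in any library spanned 430 kb of the type I cluster and 20 genes, from Krtap1-5 to Krtap17-1. In the type II cluster it spanned 135 kb and the wound-induced keratin genes Krt6b and Krt6a. The Krtap array on chromosome 16 (0.960 Mb, 24 genes) held 0 peaks in 4 libraries, 1 in Dek_fl replicate 2 and 2 in Dek_cKO replicate 2, against 14 to 24 per Mb in its flanks, and 719 kb of it with 17 genes had none. The median distance from a member to the nearest peak of any library was 23.4 kb. It was 0 for the Krt genes of chromosome 15 and for all protein-coding genes, 22.1 kb for the Krt genes of chromosome 11, 52.8 kb for the Krtap genes there and 67.0 kb for those of chromosome 16. For all protein-coding genes of up to 2 kb the median was 51.9 kb. At the 5 kb limit, the members just inside were Krt25 (4.07 kb), Krt84 (4.79 kb) and Krt81 (4.91 kb), and those just outside were Krtap1-5 (5.56 kb), Krt33a (6.01 kb) and Krtap12-1 (6.23 kb).

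**Figure D3:**
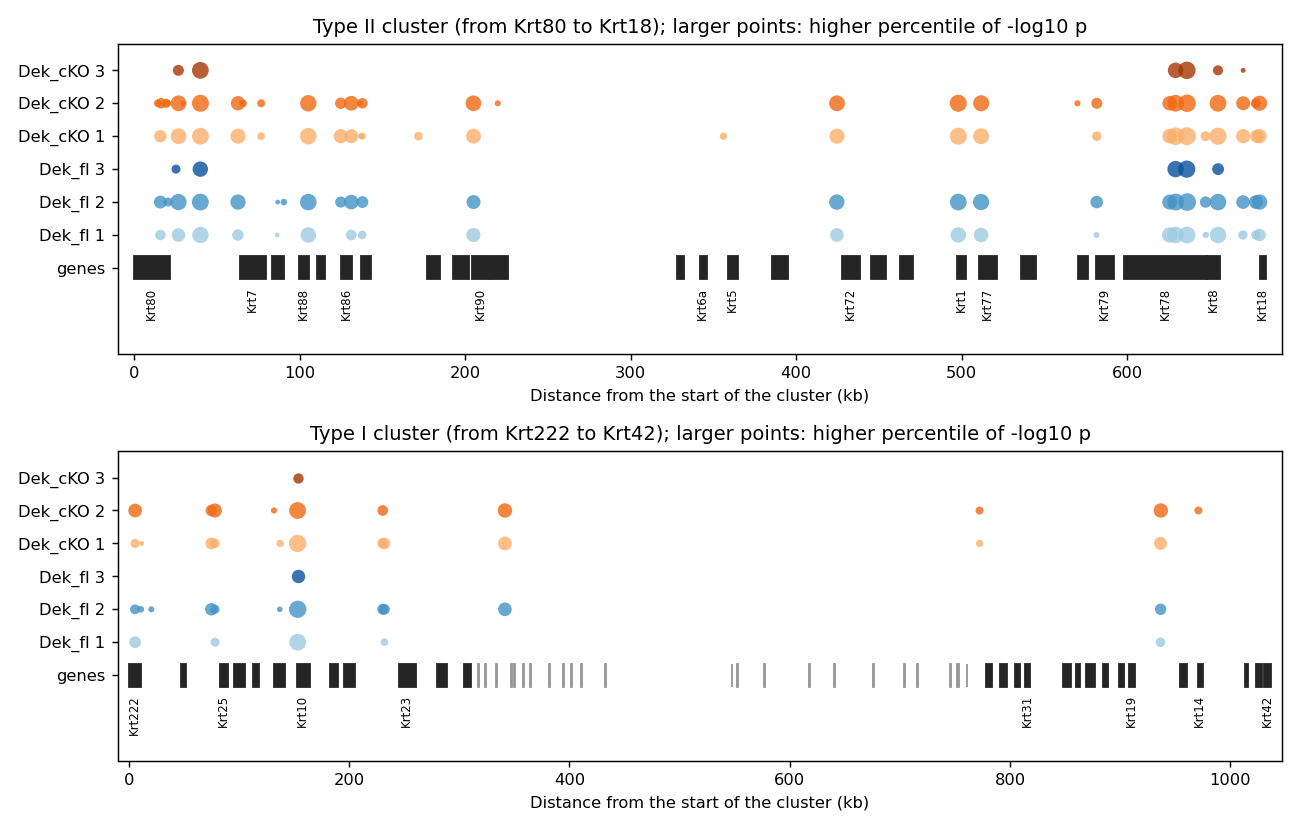
Peak summits of each library along the type II cluster (top) and the type I cluster (bottom), in kb from the start of the cluster, with larger points for a higher percentile of −log10 p within the list, and gene spans in black (Krt) or grey (Krtap), of which some are named. Peaks in all 6 rows are seen in the type II cluster near Krt78 and Krt8, beside Krt80 (through more than 1 region) and about 40 kb from the start. The last lie between Krt80 and Krt7, outside every keratin gene window. In the type I cluster such peaks are seen at Krt10, and the Krtap stretch of that cluster is nearly empty.

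By role, the calls were uneven. Of 6 keratin genes of simple epithelia, Krt8 was called in all 6 libraries, Krt7 and Krt18 in 4, and Krt19, Krt20 and Krt23 in 0. Of 3 basal keratin genes, Krt5 and Krt14, the pair of the proliferating epidermal layer, were called in 1 Dek_cKO library each and Krt15 in 0. Of 5 suprabasal keratin genes, Krt10 was called in 6 libraries, Krt1 and Krt77 in 4, and Krt2 and Krt9 in 0. Among 5 wound-associated or companion-layer genes only Krt75 was called, in 1 library. Of 5 mucosal or corneal genes, Krt78 was called in 6 libraries and Krt4 in 4. Of 7 inner root sheath genes, Krt25 and Krt72 were called in 4 and Krt28 in 3. All 6 type II hair keratin genes were called somewhere, Krt82, Krt83 and Krt86 in 4 libraries, Krt87 in 2 and Krt81 and Krt84 in 1, but none of the 9 type I hair keratin genes was. Of the 7 other keratin genes, Krt222 and Krt80 were called in 6 libraries and Krt79, Krt88 and Krt90 in 4.

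Krtap genes were called in 3 cases, all with weak peaks. Krtap28-13 on chromosome 1 was called in Dek_fl replicate 2 (fold 3.05) and Dek_cKO replicate 2 (fold 2.86). Krtap5-1 and Krtap5-4 on chromosome 7 were called in Dek_cKO replicate 2 alone, with folds of 3.75 and 3.57. Folds are the authors' enrichment of a summit over local background, set within each list. The peak at Krtap5-4 lay 83 bp before its start, which made it the only member beside Krt18 with a peak in the promoter window (2 of 87 members, against 65.6% of all genes in the table). The Krtap arrays and some hair keratin genes are near-identical copies, and the sources used here do not give how reads that fit several copies were treated, so calls and missing calls there are uncertain.

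**Figure D4:**
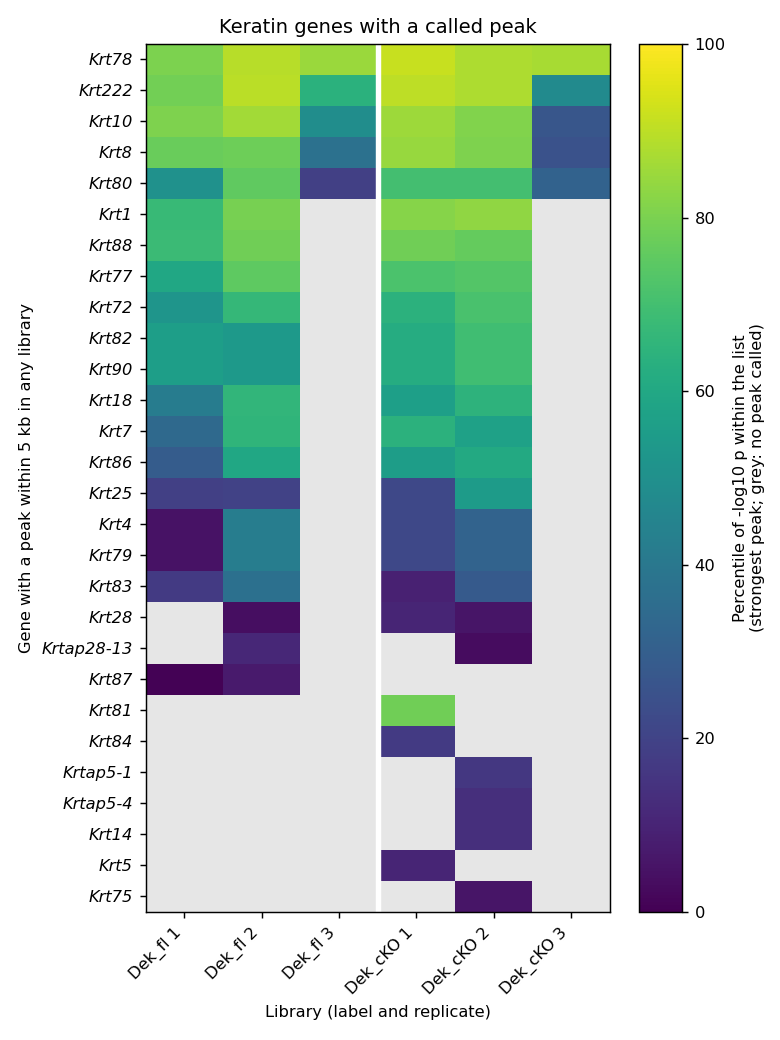
The 28 keratin genes called in at least 1 library (vertical axis) by library (horizontal axis), colored by the percentile of −log10 p of the strongest peak within 5 kb among all peaks of that list, grey where none was called. The 5 genes at the top are called in all 6 libraries, and the 13 below them in the replicates 1 and 2 of both labels and in neither replicate 3 list.

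By gene, 13 members (11.9%, against 8.90% of all genes) were called in replicates 1 and 2 of both labels and in no replicate 3 list. The peaks fell into 42 merged regions, 29 of them in a member gene and 13 in flanks only. There were 5 regions called in all 6 libraries (11.9%, against 23.3% of all 84592 regions) and 15 called in replicates 1 and 2 of both labels and in no replicate 3 list. Of the 21 member regions called in replicates 1 and 2 of both labels, 71.4% were thus missing from both replicate 3 lists, against 45.7% of 47491 such regions in all. A further 13 regions were called in 1 library, 9 of them in Dek_cKO replicate 2, at percentiles of −log10 p from 5.58 to 19.98 within their lists. The rest were 1 in Dek_fl replicate 2, 1 in Dek_fl replicate 3 and 2 in Dek_cKO replicate 1. Dek_cKO replicate 2 is the longest list (73160 peaks on these chromosomes). Dek_fl replicate 2 (71547) and Dek_cKO replicate 1 (70731) are nearly as long, and the part of list length was not tested. The share of all regions called in a single library was not counted.

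Krt8 was called through a region inside the gene, chromosome 15 from 102002745 to 102003602, whose summit lay 1187 to 1263 bp after the start shown above. Its fold was 5.84, 5.84 and 7.21 in Dek_fl replicates 1 to 3 and 7.51, 7.51 and 7.12 in Dek_cKO. Its −log10 p was 30.3, 51.1 and 15.5 in Dek_fl and 69.2, 53.2 and 12.3 in Dek_cKO. The folds of the labels overlapped only between 7.12 and 7.21, both from replicate 3, and the replicate 3 lists gave the lowest −log10 p under both labels. Folds of different lists are not on one scale, and the median fold of the whole list was higher in Dek_cKO at each replicate number. By percentile of −log10 p within the list the labels overlapped, with 77.1, 78.0 and 37.3 in Dek_fl replicates 1 to 3 and 84.4, 80.8 and 25.4 in Dek_cKO.

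Krt10 was called through a region on chromosome 11 from 99385574 to 99386889, with its summit 3142 to 3274 bp after the start shown above and 836 to 968 bp inside the far end of the gene. Its fold was 7.73, 8.67 and 10.1 in Dek_fl replicates 1 to 3 and 10.2, 9.44 and 7.76 in Dek_cKO. The 2 labels overlapped over nearly their whole range. Krt10 was the only member with a peak within 1 kb of an annotated gene end in all 6 libraries (0.917% of members, against 48.8% of all protein-coding genes), and that end is the far one. Krt8 narrowly missed this count. Its peak reached within 1 kb of its start end, 102004342, in 3 Dek_fl and 2 Dek_cKO libraries. In Dek_cKO replicate 3 the peak ended at 102003339, just outside that limit.

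Krt78, a type II keratin gene whose record spans 50624 bp and reaches almost to Krt8, was called through up to 4 regions per library. The 2 called in all 6 libraries lay at chromosome 15 from 101976920 to 101978258 (lower region) and from 101983576 to 101984941 (upper region). Their summits lay 23172 to 23240 bp and 29943 to 30194 bp upstream of the start in the promoter table, so they are in the gene record and far from that start. The upper region had folds of 6.01, 6.98 and 13.4 in Dek_fl replicates 1 to 3 and 8.64, 8.46 and 14.7 in Dek_cKO. The lower region had 4.83, 5.13 and 9.77 in Dek_fl and 6.95, 5.96 and 9.22 in Dek_cKO. At both, the folds of replicate 3 stood above those of the other replicates under each label. The median fold of the whole list was also highest in replicate 3 under each label. By percentile of −log10 p within the list, replicate 3 was the highest at neither region. The lower region stood at 76.4, 81.5 and 75.98 in Dek_fl replicates 1 to 3 and 89.2, 79.8 and 67.9 in Dek_cKO. Ranked by fold among the regions called in all 6 libraries, replicate 3 was the highest at both under each label. Over the 6 libraries the strongest Krt78 peak had the highest mean percentile of −log10 p of all members, 86.8.

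Krt222, which encodes a short keratin-like protein, was called in all 6 libraries because of a flanking region on chromosome 11 from 99229602 to 99231481 that also lies at an end of Smarce1, a gene of the SWI/SNF chromatin remodelling complex. This was the only one of the 42 regions at an end of another protein-coding gene. Its fold was 6.11, 7.27 and 9.47 in Dek_fl replicates 1 to 3 and 8.31, 8.77 and 8.73 in Dek_cKO. Some other regions overlapped further gene records. These were Gm35853 at the Krt80 regions, Gm671 at the region before the start of Krt7 and Gm32385 at a region on the upper end of Krt222. A region inside Krt222, chromosome 11 from 99237784 to 99238887, was called in replicates 1 and 2 only, with folds of 4.31 and 3.79 in Dek_fl and 3.82 and 6.61 in Dek_cKO.

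Krt80 was called in all 6 libraries through more than 1 region. The region from 101374525 to 101375910 on chromosome 15, beyond the upper end of the gene, had folds of 4.19 and 5.69 in replicates 1 and 2 of Dek_fl and 5.94, 5.94 and 6.27 in Dek_cKO replicates 1 to 3. Dek_fl replicate 3 had its peak at 101373328 to 101373740 instead, with a fold of 4.92.

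Among the 87 members with a start in the promoter table, Krt18 had a peak on its start in 4 libraries and Krtap5-4 in 1. The region from 102027825 to 102028731 on chromosome 15 covers the promoter sequence given above, and its summits lay between 1 bp before and 8 bp after the start. Its fold was 3.74 and 4.62 in replicates 1 and 2 of Dek_fl and 4.68 and 5.82 in replicates 1 and 2 of Dek_cKO, with −log10 p of 11.8 and 33.4 in Dek_fl and 25.9 and 29.4 in Dek_cKO. Neither replicate 3 list had a peak there. A weaker region upstream, from 102025387 to 102026981, had folds of 2.94 and 3.73 in Dek_fl and 4.01 and 3.22 in Dek_cKO. Krt7, with the richest CG content of the family, had instead a peak 1344 to 1411 bp before its start, from 101410488 to 101411679, with folds of 3.87 and 6.41 in replicates 1 and 2 of Dek_fl and 6.89 and 6.34 in Dek_cKO.

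Several keratin genes of the epidermis and hair had peaks in the 4 longer lists near an end of the gene. Among those given here the folds were highest at Krt1, the type II partner of Krt10, and at Krt88. The Krt1 region at chromosome 15 from 101845567 to 101846824, 749 to 783 bp inside the lower end, had folds of 6.33 and 8.53 in replicates 1 and 2 of Dek_fl and 9.61 and 10.8 in Dek_cKO. Krt88 (101452698 to 101454154) had 6.36 and 9.33 in Dek_fl and 9.87 and 10.3 in Dek_cKO. In both genes the Dek_cKO folds stood above the Dek_fl folds, but so did the median fold of the whole list, which was 4.40 and 4.56 in replicates 1 and 2 of Dek_fl and 5.05 and 5.32 in Dek_cKO. The percentile of −log10 p within the list was 68.3 and 78.3 in Dek_fl and 78.2 and 76.5 in Dek_cKO at Krt88, where the labels overlapped. At Krt1 it was 67.6 and 79.6 in Dek_fl and 81.9 and 83.2 in Dek_cKO, higher in Dek_cKO, and no test was run on these 2 libraries a label. Krt77 (101858791 to 101860337) had 5.16 and 6.87 in Dek_fl and 6.60 and 8.002 in Dek_cKO, with overlapping labels. A region shared by the windows of Krt82 and Krt90 (101552820 to 101553904) had 5.37 and 5.98 in Dek_fl and 7.39 and 8.52 in Dek_cKO.

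In Krt77, Krt79 and Krt90, whose strand is known, the peak lay at the far end, 1224 to 1279, 324 to 534 and 899 to 979 bp inside it. None of the promoter windows of these 3 genes had a peak in any library. Krt79 shared its region (101929285 to 101930322) with the window of Krt4, at folds of 2.82 and 5.01 in Dek_fl and 3.96 and 4.82 in Dek_cKO. Among hair keratins, Krt86 (101478792 to 101480061) had 3.95 and 6.35 in Dek_fl and 5.95 and 7.68 in Dek_cKO, and Krt83 (101484664 to 101486658) 3.25 and 4.51 in Dek_fl and 3.00 and 4.64 in Dek_cKO. The 15 regions found only in replicates 1 and 2 had a median rank by −log10 p of 28827 to 32963 in their lists, and 3 to 5 of them per list ranked within the length of the shortest list.

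Members at a gene end, that is within 1 kb of either annotated end, numbered 11, 14 and 2 in Dek_fl replicates 1 to 3 and 13, 14 and 1 in Dek_cKO. The shares of all protein-coding genes ran from 51.4% to 67.7%. In total 18 members (16.5%) had such a peak in at least 1 library, against 69.7% of all genes. Promoter windows were called in 1, 1 and 0 members in Dek_fl and 1, 2 and 0 in Dek_cKO, against 50.7% to 63.9% of the genes of the table, and in all 6 libraries for 0 members, against 48.0%. These window counts cover only the 87 members in the promoter table: 9 of the 28 called members (Krt1, Krt4, Krt80, Krt81, Krt83, Krt86, Krt87, Krt88 and Krt222) are not in it, so how far their peaks lay from the start is not given.

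The libraries labelled Dek_cKO were then compared with those labelled Dek_fl. The share of members called within 5 kb was 15.6% ± 9.58 (SD, n = 3) in Dek_cKO and 13.8% ± 7.998 (SD, n = 3) in Dek_fl, a difference of 1.83 percentage points (exact two-sided permutation test, p = 0.6, where 0.1 is the smallest possible). Within replicates 1 and 2 the difference was 2.75 points and within replicate 3 it was 0. The share called at a gene end was 8.56% ± 6.64 in Dek_cKO and 8.26% ± 5.73 in Dek_fl, a difference of 0.306 points (exact permutation p = 1.0), and it was 0.917 points in replicates 1 and 2 and -0.917 in replicate 3. Set against list length, member windows held 3.74 ± 1.39 peaks per 10000 peaks of the list in Dek_cKO and 3.65 ± 0.995 in Dek_fl, a difference of 0.0898 (exact permutation p = 0.9), with 0.291 and -0.311 within the batches. All 3 differences were smaller than the SD of either label, which includes the low replicate 3 lists. Each turned negative when Dek_fl replicate 3 was left out, to -2.75 points, -2.91 points and -0.477 peaks, or when Dek_cKO replicate 1 or 2 was. Without both replicate 3 lists the share called within 5 kb was 21.1% ± 1.30 (SD, n = 2) in Dek_cKO and 18.3% ± 1.30 in Dek_fl. That difference of 2.75 points exceeded both SDs (exact permutation p = 0.333, the smallest possible over 6 assignments). The other 2 differences without these lists did not exceed the SD of both labels.

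By gene, 19 of the 28 called members were called in equal numbers of libraries of both labels, 8 in 1 more Dek_cKO library and 0 in 1 more Dek_fl library. The shares of all protein-coding genes in these 3 classes were not counted, so no lean of the keratin genes is read from them. No member was called in at least 2 more Dek_cKO than Dek_fl libraries (0.536% of all protein-coding genes were). Krt87 was called in 2 more Dek_fl libraries (0.0370% of all genes were), through regions at percentiles of −log10 p of 7.24 and less within their lists. It was also the only member called in Dek_fl libraries only (0.917% of members, against 0.453% of all genes). Calls in Dek_cKO libraries only were seen for 7 members (6.42%, against 1.15% of all genes). They are Krt5, Krt81 and Krt84 in replicate 1 and Krt14, Krt75, Krtap5-1 and Krtap5-4 in replicate 2, each in that 1 library. Dek_cKO replicate 2 is the longest list. Dek_cKO replicate 1 is shorter than Dek_fl replicate 2, where Krt5, Krt81 and Krt84 were not called. The part of list length in these calls was not tested. Krt81 was counted only in Dek_cKO replicate 1 because the edge of the Krt88 peak came within 4.91 kb of it. No member region was called in all 3 libraries of one label and in none of the other, where 0.104% of all regions were called so in Dek_cKO and 0.00355% in Dek_fl.

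Signal rank within each library was compared at the 5 regions that all libraries share. The fold was ranked over the 19683 regions called in all 6 libraries and turned into a normal score, so that 0 is the middle of these shared regions, not of a whole list. At Krt8 the score was -0.11, -0.29 and -0.45 in Dek_fl replicates 1 to 3 and 0.14, -0.19 and -0.73 in Dek_cKO, a difference (Dek_cKO minus Dek_fl) of 0.025 (SE 0.33). At Krt10 it was 0.86, 1.22 and 0.45 in Dek_fl and 1.39, 0.59 and -0.49 in Dek_cKO, a difference of -0.34 (SE 0.48). The widest spread of the 5 regions was that of Krt10 in Dek_cKO, where replicate 3 lay below the middle of the shared regions. The differences were -0.0076 (SE 0.39) and 0.21 (SE 0.45) at the lower and upper regions of Krt78 and -0.046 (SE 0.32) at the region beside Krt222. By limma 0 of the 5 regions passed an adjusted p of 0.05 (adjusted p = 1.0 for each), and 0 passed an unadjusted p of 0.05. Over all shared regions 0 ranked higher and 0 lower at the adjusted threshold, with 68 and 19 at the unadjusted one, so the background of calls was 0%. Each of these differences was smaller than its SE. Split by replicate, the difference in replicates 1 and 2 and then in replicate 3 was 0.18 and -0.28 at Krt8 and -0.045 and -0.94 at Krt10. It was 0.17 and -0.47 beside Krt222, and 0.19 and -0.41 at the lower and 0.29 and 0.047 at the upper region of Krt78. The differences over all libraries at Krt8, beside Krt222 and at the lower region of Krt78 thus average values of opposite sign. Replicate 3 is 1 library a label. The SEs of 0.32 to 0.48, from 3 libraries a label, limit how small a shift could have been detected.

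**Figure D5:**
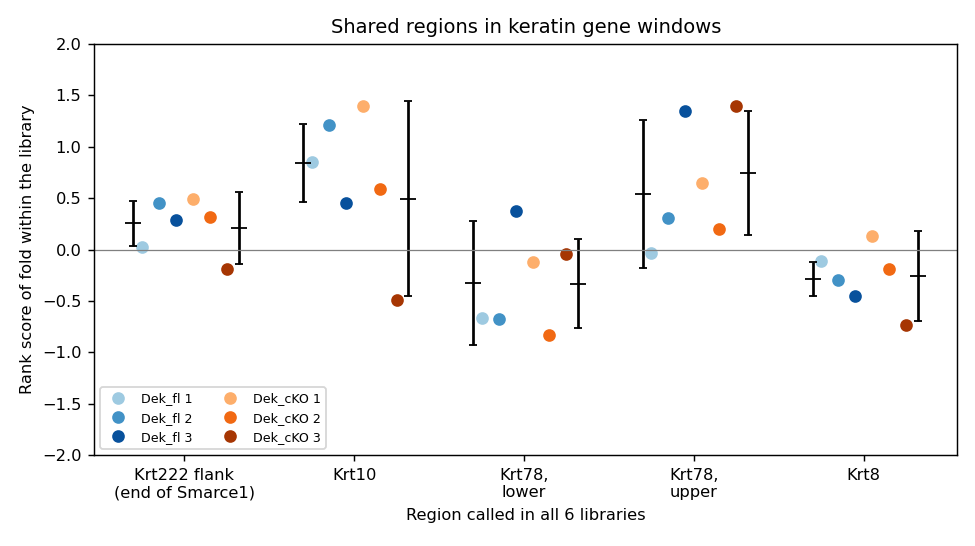
Normal score of the deposited fold among shared regions (vertical axis, no unit) at the 5 regions of keratin gene windows called in all 6 libraries, 1 point per library, with black bars for the mean and SD of each label (n = 3). Labels overlap at each region, and Krt10 in Dek_cKO spans from -0.49 to 1.39.

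Genes that work with keratins or mark epithelium were counted in the same way, to be read against the 80.6% of all protein-coding genes called in at least 1 library and the 62.1% called in all 6. Of 19 genes for other intermediate filament proteins all 19 were called in at least 1 library and 11 in all 6, among them Bfsp1, Bfsp2, Iffo1 and Iffo2; Lmntd1 was called in 3 libraries and Des, which encodes muscle desmin, in 4. Vim and the lamin genes Lmna, Lmnb1 and Lmnb2, named after their values were seen, were also called in all 6. Of 23 genes for filament linkers and desmosomes, 18 were called in at least 1 library and 9 in all 6, including Dst, Eppk1, Evpl and Jup. The desmosomal cadherin genes Dsg1a, Dsg1b, Dsg3, Dsg4 and Dsc3 were called in 0. Of 20 matched genes of epidermal differentiation 6 were called, 4 of them (Lor, Tchh, Tgm1 and Tgm5) in all 6 libraries, and 14 were not, such as Flg and Crnn. The keratin share, 25.7%, lay close to the 6 of 20 of this list and below the other filament and linker lists, which are short lists chosen with earlier results known.

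Markers of other cell types were called at shares to be read against the same 80.6% and 62.1%. Of 16 epithelial markers all 16 were called in at least 1 library and 6 in all 6, the second a lower share than that of all genes, including Cldn4, Esrp1, Grhl1 and Prss8, with 7 to 15 per Dek_fl library and 9 to 16 per Dek_cKO library. Trp63, the defining factor of keratinocytes, was called in 1 Dek_cKO library. Of the markers of B cells 5 of 5, T cells 4 of 5, myeloid cells 5 of 6, erythroid cells 4 of 5 and endothelial cells 6 of 6 were called in at least 1 library, and in all 6 libraries 2, 2, 1, 3 and 5. A peak near a marker gene is not a sign that cells of that type were present, and their part in the keratin calls was not tested.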

How the data were processed

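Peak lists of 6 ATAC-seq libraries were analysed. Per the submitters' processing notes, the authors used Bowtie2, Picard and MACS2 with the build mm10. Their versions, settings, handling of reads that map to several places and any Tn5 shift: not given in the sources used here. Lists were called on 1 library each. Each deposited peak has a score (10 times the −log10 q-value in replicates 1 and 2 and 10 times the −log10 p-value in replicate 3, within 1 unit), a fold (a ratio of the summit to local background, by the authors), a deposited −log10 p-value and a deposited −log10 q-value. These were used only to rank, filter or describe peaks within a list. Read depth is not known, so no interval or detection limit is given. The precision is limited by 3 libraries per label, and the lowest deposited −log10 q-value was 1.30 to 1.33 in replicates 1 and 2 and 2.82 to 2.83 in replicate 3.

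Coordinates are 1-based on mm10. Peaks on chromosomes 1 to 19 and X were kept. Genes came from the RefSeq gene table, which has no strand, exons or UTRs, so exonic and intronic positions are not stated; strand and start came from the RefSeq promoter table (GRCm38.p6), and members it lacks are given by lower or upper end. Peaks sharing 1 bp were merged into regions. Values per library were tested by exact permutation, two-sided, over the 20 assignments of the libraries. Shared regions were compared with limma 3.58.1 in R 4.3.3 with Benjamini-Hochberg adjustment over all shared regions; the other steps used Python 3.11.15. The overlap and rank steps were tested on simulated data.

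Libraries were also checked for pairing: at shared regions, deviations from the label means of Dek_fl and Dek_cKO libraries of the same replicate number correlated at 0.27, 0.52 and 0.74, which meets the rule for pairing by number. Dek_fl replicate 1 with Dek_cKO replicate 2 (0.31) and Dek_fl replicate 2 with Dek_cKO replicate 1 (0.57) did as well, so the numbers single out the batch rather than pairs.

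The members and gene lists were chosen with earlier results of these data known. Named were the simple-epithelial keratin genes, members called in all 6 libraries, members called in at least 2 more libraries of a label, up to 10 members with gene-end peaks, and from each other list up to 4 genes called in the most and 2 in the fewest libraries, by alphabet in ties. Other members are named to account for all 28 called, and were chosen after their values were seen. Alternatives were equal-length lists, a −log10 q-value of at least 10, summit overlap, windows of 0 and 10 kb, 2 kb for gene ends, neighbouring gene ends left out, ranking by −log10 p, a batch term, the replicate block, regions of at least 4 libraries and each library left out. The promoter window and the lists without both replicate 3 libraries were added after seeing the data.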

Additional observations from a re-analysis of the deposited data

How the results depend on the processing

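The differences between labels had no call to lose, and none of the alternatives gave an exact permutation p under 0.3. The difference in the share of members called within 5 kb (1.83 points) stayed positive under the other lists, thresholds and windows and ranged from -2.75 to 7.34 points when 1 library was left out. The difference at gene ends (0.306 points) turned to -0.306 in equal-length lists and to -0.612 at a −log10 q of at least 10, and ranged from -2.91 to 4.13 over libraries left out. The difference in peaks per 10000 (0.0898) turned to -0.459 at that threshold, to -0.0452 with the gene alone as the window and to -0.0871 without peaks at ends of neighbouring genes, and ranged from -0.499 to 0.857 over libraries left out. The count of member regions of Dek_cKO only and of Dek_fl only, 0 and 0, became 1 and 1 without both replicate 3 lists: a region in Krt7 (101424630 to 101425258) and one in Krt87 (101434498 to 101435144); with 1 library left out either count ranged from 0 to 1 (1 of Dek_cKO only without Dek_cKO replicate 3, and 1 of Dek_fl only without Dek_fl replicate 3). Over all regions the counts were 88 and 3 with every library and 2555 and 282 without both replicate 3 lists; they were 2492 of Dek_cKO only without Dek_cKO replicate 3 and 275 of Dek_fl only without Dek_fl replicate 3.

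With the replicate block the exact permutation p was 0.5, 1.0 and 1.0 for the 3 differences (8 assignments, smallest possible 0.25), and the block in limma called 1 region higher and 0 lower, none of them a member region; it changed no call at the keratin genes. In every limma alternative 0 member regions passed, also among 21 regions called in at least 4 libraries. Ranked by −log10 p, the differences at the lower region of Krt78 and at Krt8 turned to 0.00069 and -0.094. With 1 library left out the score differences ranged from -0.19 to 0.15 beside Krt222, -0.79 to 0.15 at Krt10, -0.18 to 0.34 and -0.12 to 0.61 at the lower and upper regions of Krt78 and -0.17 to 0.26 at Krt8. The cause of these turns was not tested. Read depth is unknown, so a missing call cannot be told apart from too few reads.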
